A study of Mus musculus with 58 samples.

Results

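Retinas of male heterozygous Ins2Akita mice (C57BL/6-Ins2Akita/J) were compared with retinas of their wild-type male littermates, labelled C57/BL/6, at ZT5, which is 5 h after lights on. The comparison took every library that the labels put in these groups, 5 diabetic and 6 control, of the 58 libraries of a series that covered 6 times of day. All mice were 4 months old, had lived from birth in a cycle of 12 h light and 12 h dark and were perfused with cold phosphate-buffered saline before the eyes were removed. Each library held the total RNA of a single retina after removal of ribosomal RNA, so coding and non-coding transcripts were counted together. The Akita mutation acts in the beta cells of the pancreas, where misfolded insulin 2 leads to beta cell loss, so the retina saw high blood glucose rather than a missing retinal gene. *Ins2* itself had 0 to 4 reads per control library and 0 or 1 read per diabetic library at ZT5, so its counts did not check the genotypes, and the glucose of the individual mice was not used here. The paper's purpose was to follow the daily cycle of transcripts before overt retinopathy, and ZT5 is one of its daytime points.

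The retina is a layered neural tissue in which rods and cones turn light into a signal that bipolar and amacrine cells pass on to ganglion cells, with Muller glia as its supporting cells. The retinal pigment epithelium lies behind the photoreceptors, clears their shed outer segments and rebuilds the chromophore of the visual pigments in the visual cycle. It is a separate layer that is peeled from the neural retina in dissection, so its transcripts in a retinal library come from whatever stayed attached. Photoreceptors and pigment epithelium both follow the day, through a clock of transcription factors and through light.

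The libraries at ZT5 held 7773117 to 18020493 counted reads in controls and 8588878 to 18287074 in diabetic retinas. The tissue was that of the labels: summed rod markers lay between 46078 and 48827 CPM (counts scaled to a common library total) in controls and between 41159 and 51175 in diabetic retinas. Control replicate 5 stood apart, with 45.3 CPM of cornea, iris and ciliary body markers (7.5 to 17.4 in the other control libraries), 11.5 of lens markers (1.85 to 3.47) and 8.66 of blood markers (0.101 to 0.646). Among the diabetic libraries these sums reached 13.7, 6.32 and 0.815. Results that rest on this library are given with and without it. No 2 libraries of a group differed by counting noise alone, since the chi-square per degree of freedom between them was at least 1.86. This cannot tell whether 2 libraries were made from the same sample.

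Of 19120 genes tested with edgeR, 4 fell in diabetic retinas at ZT5 (0.0209% of the genes tested) and 0 rose (0%) at a Benjamini-Hochberg adjusted p under 0.05. With DESeq2 in place of edgeR, 22 fell and 2 rose. At an unadjusted p under 0.05, 681 genes were lower (3.56%) and 494 higher (2.58%). A further 14 genes lower and 2 higher in diabetic retinas had an adjusted p between 0.05 and 0.10. All 5 diabetic libraries lay below all 6 control libraries for 132 genes (0.69%) and above them for 79 genes (0.413%). The median log2 difference over all genes was 0, and levels below are counts normalized by DESeq2 size factors unless another unit is named.

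*Fndc1*, which encodes a secreted protein with fibronectin type III domains, gave the smallest p. Its normalized counts were 468, 513, 436, 490 and 578 in the 5 diabetic retinas, while the lowest, median and highest of the 6 controls were 723, 759 and 871. The groups did not overlap, and the highest diabetic retina lay below the lowest control. *Fndc1* fell by 0.65 on the log2 scale (SE 0.094, edgeR adjusted p = 0.000128). It lies on the minus strand of chromosome 17 at chr17:7738569-7827302 (GRCm38), with no other annotated gene over it. *Fndc1* was called with each of the 11 libraries left out in turn.

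*Fam160a1* encodes a protein of the complex that couples endosomes to the dynein motor. It had 1460, 1587, 1548, 1476 and 1608 normalized counts in diabetic retinas against a lowest, median and highest of 1745, 1885 and 1915 in controls. The drop was small, 0.28 on the log2 scale (SE 0.048, edgeR adjusted p = 0.0035), but the libraries within each group lay close together and the groups did not overlap. *Fam160a1* (chr3:85660061-85817291, minus strand) contains the gene model *Gm37240* on the same strand, which differed by -0.10 (edgeR adjusted p = 0.998). Its call also held with each library left out.

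Both of the other genes that fell were non-coding or uncharacterised models with low counts. *Gm15348*, a long intergenic RNA at chr8:12706944-12719127, had 49.2, 45.3, 45.9, 39.7 and 48.4 normalized counts in diabetic retinas and 60.1 to 84.6 in controls, with a median of 75.1. *Gm15348* fell by 0.68 on the log2 scale (SE 0.14, edgeR adjusted p = 0.037). *Gm43364*, a model of unknown coding status at chr5:108550081-108553354, had 15.1, 15.4, 4.92, 7.3 and 13.5 normalized counts against 20.7 to 50.4 in controls, with a median of 31.7. Its log2 difference was -1.46 (SE 0.29, edgeR adjusted p = 0.037), and it rested on 13 to 44 reads per control library. Neither gene's groups overlapped. When libraries were left out in turn, *Gm43364* was called in 3 and *Gm15348* in 2 of 11 fits. Without control replicate 5 their log2 differences were -1.43 and -0.69, with edgeR adjusted p of 0.0595 and 0.0589.

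**Figure D1:**
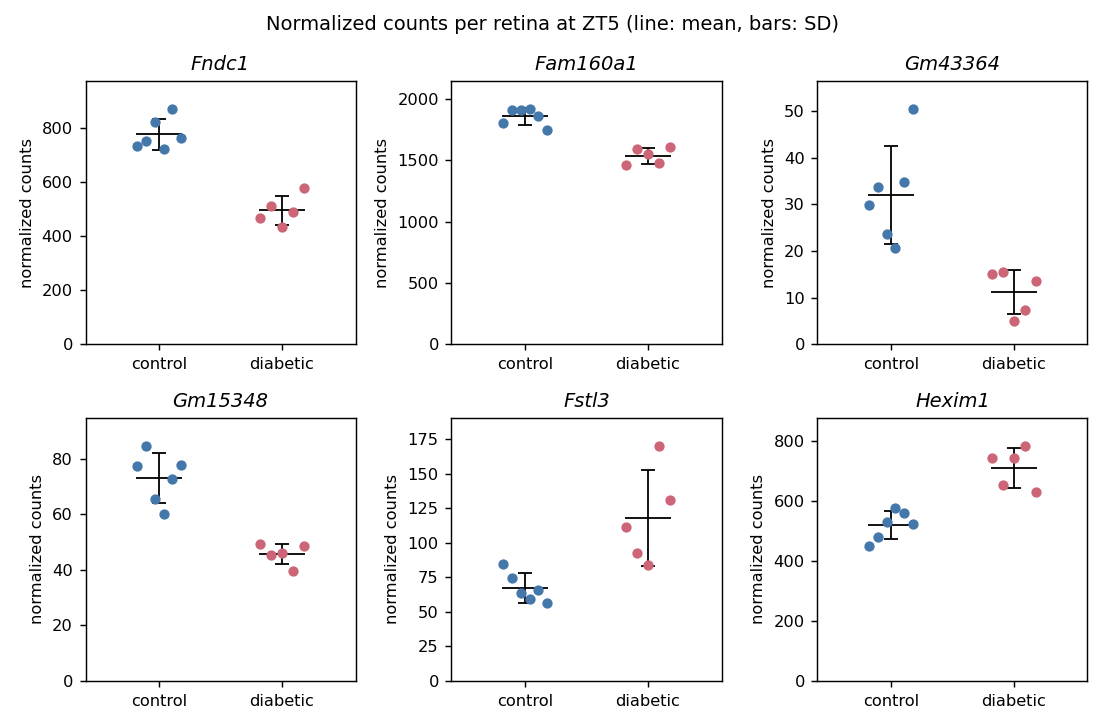
Normalized counts of 6 genes at ZT5, with 1 point per retina (6 control, 5 diabetic), the mean as a line and the SD as bars; every axis starts at 0. The groups are apart for *Fndc1*, *Fam160a1*, *Gm43364*, *Gm15348* and *Hexim1*, while for *Fstl3* the lowest diabetic retina (83.6) sits just under the highest control (84.8).

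Other genes lower in diabetic retinas had a small p without passing the adjusted threshold in the edgeR fit of all 58 libraries. *Rnf123*, a ubiquitin ligase subunit, had 3288 to 3580 normalized counts in diabetic retinas and 3900 to 4496 in controls (log2 difference -0.31, SE 0.069, edgeR adjusted p = 0.0869). *Pde6h*, the inhibitory subunit of the cone phosphodiesterase, had 1129 to 1196 against 1329 to 1423 (-0.25, SE 0.057, adjusted p = 0.0869). *Tmem216*, a protein of the ciliary transition zone, had 77.0 to 92.4 against 105 to 131 (-0.51, SE 0.12, adjusted p = 0.0869). Diabetic and control libraries of these 3 genes were apart from each other, as they were for the non-coding models *Gm16023* (-0.73) and *Gm12758* (-0.73), whose adjusted p was also 0.0869. On the other strand, *Rnf123* overlaps *Amigo3*, *Gmppb* and *Mst1* among others, *Pde6h* overlaps *Arhgdib*, and *Tmem216* overlaps *Cpsf7*, so the source of shared reads is uncertain. *Gm16023* overlaps *Gm10563* on its own strand and *Slc35e2* on the other, and *Gm12758* lies antisense to *4931406P16Rik*. *Rnf123*, *Pde6h*, *Tmem216*, *Gm16023* and *Gm12758* had an edgeR adjusted p of 0.015, 0.0339, 0.0654, 0.0494 and 0.015 in a fit of the 11 ZT5 libraries alone. In the same order, DESeq2 on all 58 libraries gave adjusted p of 0.0258, 0.0258, 0.0287, 0.0258 and 0.0165. With the GC content and length correction the edgeR adjusted p were 2.16e-06, 0.0374, 0.0588, 0.0507 and 0.0569.

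The 10 genes with the smallest p among those higher in diabetic retinas were short of the threshold in the edgeR fit of all 58 libraries. *Fstl3*, a secreted antagonist of activin, had 111, 92.4, 83.6, 170 and 131 normalized counts against 56.1, 64.6 and 84.8 as the lowest, median and highest control (log2 difference 0.81, SE 0.18, edgeR adjusted p = 0.0796). Its groups overlapped by a single diabetic library, and *Prss57* overlaps the gene on the other strand. *Hexim1*, an inhibitor of the elongation factor P-TEFb, had 742, 651, 741, 782 and 628 against 450, 526 and 574 without overlap (0.45, SE 0.10, adjusted p = 0.0869). *Fstl3* and *Hexim1* passed with DESeq2, at adjusted p of 0.0155 and 0.0277. *Slc38a2*, a neutral amino acid transporter that ATF4 induces, had 1949 to 2126 against 1439 to 1691 (0.39, SE 0.11, adjusted p = 0.268), and *Trpc6*, a cation channel, 282 to 365 against 190 to 227 (0.53, SE 0.14, adjusted p = 0.167). Neither pair of groups overlapped, and in the fit of the 11 ZT5 libraries alone *Slc38a2* and *Trpc6* passed, at edgeR adjusted p of 0.0031 and 0.008. So did *Hexim1*, *Ubap1l* and *Papd7* in that fit, at 0.015, 0.0339 and 0.0489. *Ceacam1*, *Sox4*, *Papd7*, *Ubap1l* and *D930048N14Rik* were higher by 0.73, 0.35, 0.24, 0.34 and 0.57 on the log2 scale. In the fit of all 58 libraries their edgeR adjusted p ran from 0.162 to 0.284.

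*Mirlet7g* completed these 10 genes, with 15.1, 9.06, 9.83, 11.4 and 14.4 normalized counts in diabetic retinas and 2.37 to 7.27 in controls, where the lowest library had 3 reads. Its log2 difference was 1.44 (SE 0.40, edgeR adjusted p = 0.225), and the groups did not overlap. The counted model is the hairpin at chr9:106178840-106178927, which lies inside *Wdr82* on the same strand, so unspliced *Wdr82* RNA and the let-7g precursor cannot be told apart. *Wdr82* differed by 0.07 (edgeR adjusted p = 0.944). The mature microRNA made from this hairpin at chr9:106178846-106178867 (RefSeq, GRCm38.p6) is shown because let-7 targets are read through its seed, bases 2 to 8, here in capitals. Libraries of this kind do not measure the mature form.
mmu-let-7g-5p: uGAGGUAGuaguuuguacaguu

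The pigment epithelium markers formed the group with the lowest median in diabetic retinas at ZT5. Of 11 markers, 10 were tested and 0 were called by edgeR in the fit of all 58 libraries, but 9 of 10 were lower with an unadjusted p under 0.05, where 3.56% of all genes were. DESeq2 called 4 of them, *Lrat*, *Rgr*, *Rpe65* and *Rdh5*, with adjusted p of 0.00384, 0.0222, 0.0287 and 0.0439. In the edgeR fit of the 11 ZT5 libraries alone *Rdh5* and *Rpe65* passed, at adjusted p of 0.0339 and 0.0377, and with the GC content and length correction *Lrat* did, at 0.0274. The median log2 difference of the list was -1.45, against 0 over all genes. Fewer attached cells and less RNA per cell cannot be told apart in such libraries, and how much epithelium came off with each retina was not tested.

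Genes of the visual cycle were among the markers that were lower. *Lrat*, which esterifies retinol, had 20.8, 29, 27.9, 21.1 and 22.4 normalized counts in diabetic retinas and a lowest, median and highest of 26.9, 64.1 and 154 in controls (log2 difference -1.67, SE 0.35, edgeR adjusted p = 0.0596). *Rpe65*, the isomerase that makes 11-cis-retinol, had 47.3, 72.5, 68.8, 30 and 50.2 against 65.6, 137 and 301 (-1.61, SE 0.41, adjusted p = 0.15). *Rgr*, an opsin of the epithelium and Muller glia, had 135, 242, 211, 176 and 197 against 202, 391 and 939 (-1.31, SE 0.31, adjusted p = 0.0878). *Rdh5*, a retinol dehydrogenase, had 36, 38, 54.1, 37.3 and 45.8 against 57.5, 85.2 and 116 (-1.02, SE 0.26, adjusted p = 0.15). *Lrat* overlaps *Rbm46os* on the other strand, and *Rdh5* overlaps *Bloc1s1* on its own. *Rdh5* was apart between the groups, while *Lrat*, *Rpe65* and *Rgr* overlapped through control replicate 5 only, the next controls being at 41.8, 109 and 376. The highest diabetic library stayed under the control median for each of the 4 enzymes and opsins.

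Most of the other markers were lower too. The pigment genes *Tyrp1*, *Pmel* and *Tyr* had log2 differences of -2.07, -2.12 and -1.58 with SE of 0.71, 0.86 and 0.50. *Ttr*, the carrier of thyroxine and retinol, and *Slc6a20a*, an amino acid transporter, differed by -1.27 and -0.92. *Best1*, a chloride channel with 8.16 to 13.5 normalized counts in controls, was the exception at 0.15 (SE 0.33). The lactate transporter *Slc16a8*, the carbonic anhydrase *Car12* and the collagen *Col8a2*, listed under other pathways, had log2 differences of -1.32, -0.97 and -1.06.

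Summed over the 11 markers, the epithelium gave 30.4, 42.1, 42.8, 33.4 and 39.7 CPM in diabetic retinas and 82.4, 106, 80.0, 166, 44.8 and 99.9 in control replicates 1 to 6. The groups did not overlap, although control replicate 5, which carried the anterior eye and blood transcripts, was at 44.8 next to 42.8 in the highest diabetic retina. Without that replicate *Lrat* and *Rgr* passed the threshold (log2 differences of -1.87 and -1.48, edgeR adjusted p of 0.00726 and 0.0397), and the count of markers lower at an unadjusted p under 0.05 stayed at 9. It was 8 or 9 with any library left out. Diabetic ZT5 also had the lowest median of the 12 groups of the series: the others ran from 77.8 (diabetic ZT1) to 236 (diabetic ZT21), against 39.7 here, while 1 control library at ZT1 was as low (33.9). At ZT9 the diabetic libraries spanned 90.2 to 197 and the controls 163 to 231, and at ZT13 172 to 339 against 66.6 to 270, so the order of the genotypes was not the same at all times.

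**Figure D2:**
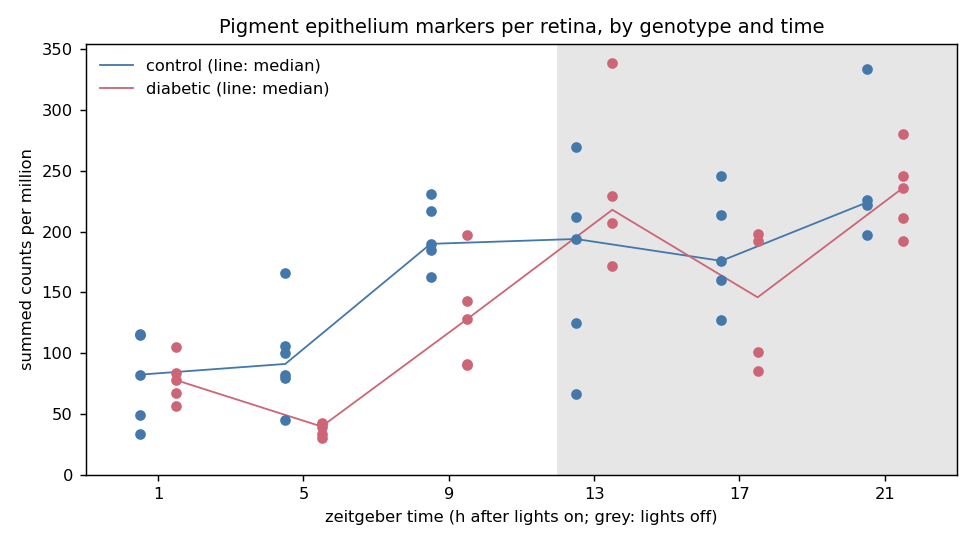
Summed CPM of 11 pigment epithelium markers against zeitgeber time, with 1 point per retina, lines through the group medians and the dark hours in grey. At ZT5 the 5 diabetic retinas lie between 30.4 and 42.8, below all 6 controls (44.8 to 166), and the genotypes overlap at the other 5 time points.

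The promoters of the epithelial markers were searched for the M-box CATGTG, a word bound by the pigment cell factor MITF, and for TAATCC, a word bound by OTX and CRX proteins, on both strands (CACATG and GGATTA). RefSeq promoters (GRCm38.p6, from 250 bases before to 50 bases after the gene start) were listed for 8 of the 11 markers. The CATGTG core stood in 4 of the 8 and in 14.2% of all 32851 promoters. The OTX word stood in 4 of the 8 and in 7.06%, and both in 3 of the 8 and in 1.03%. These matches are letters in a window and not measured binding. The 4 promoters with CATGTG are printed, words in capitals: *Rpe65* (chr3:159598931-159599230, plus strand), *Rgr* (chr14:37048965-37049264, minus), *Tyrp1* (chr4:80833963-80834262, plus) and *Tyr* (chr7:87493463-87493762, minus).
Rpe65: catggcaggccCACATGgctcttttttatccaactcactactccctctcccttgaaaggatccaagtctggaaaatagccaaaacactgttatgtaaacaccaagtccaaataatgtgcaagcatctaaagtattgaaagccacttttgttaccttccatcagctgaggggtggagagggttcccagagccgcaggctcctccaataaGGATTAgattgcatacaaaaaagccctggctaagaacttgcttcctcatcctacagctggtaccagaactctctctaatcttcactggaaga
Rgr: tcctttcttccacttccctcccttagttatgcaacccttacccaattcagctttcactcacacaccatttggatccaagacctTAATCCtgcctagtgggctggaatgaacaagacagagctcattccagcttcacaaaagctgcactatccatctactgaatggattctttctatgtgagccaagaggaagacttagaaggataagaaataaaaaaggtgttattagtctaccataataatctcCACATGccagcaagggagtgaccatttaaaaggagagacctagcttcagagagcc
Tyrp1: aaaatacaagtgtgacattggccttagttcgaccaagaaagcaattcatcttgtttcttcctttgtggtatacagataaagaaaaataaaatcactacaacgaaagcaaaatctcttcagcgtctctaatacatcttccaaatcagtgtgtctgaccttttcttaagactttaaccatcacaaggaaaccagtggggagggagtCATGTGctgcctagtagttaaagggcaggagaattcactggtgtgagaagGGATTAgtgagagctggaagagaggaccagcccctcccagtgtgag
Tyr: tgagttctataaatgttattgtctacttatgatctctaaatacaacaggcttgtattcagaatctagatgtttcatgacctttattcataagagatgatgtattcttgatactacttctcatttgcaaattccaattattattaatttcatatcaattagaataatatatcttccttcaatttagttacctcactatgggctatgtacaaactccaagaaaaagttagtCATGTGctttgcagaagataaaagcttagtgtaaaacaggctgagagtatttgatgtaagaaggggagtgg
Counted from the first base of the gene as 1, this core word began at -239 in *Rpe65*, -5 in *Rgr*, -46 in *Tyrp1* and -21 in *Tyr*.

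Cone phototransduction genes were slightly lower at ZT5 and at the other times. Their median log2 differences at ZT1, ZT9, ZT13, ZT17 and ZT21 were -0.17, -0.08, -0.07, -0.08 and -0.12. The values that follow are those of ZT5. Of 10 tested, 5 were lower with an unadjusted p under 0.05 (3.56% of all genes), 0 were called by edgeR and 1 by DESeq2 (*Pde6h*) in the fit of all 58 libraries, and the median log2 difference was -0.13, with 9 of 10 below 0 (49.9% of all genes). The green opsin gene *Opn1mw* had 1014, 1068, 1088, 1203 and 1161 normalized counts against 1218, 1331 and 1386 as lowest, median and highest control, without overlap (-0.26, SE 0.11, edgeR adjusted p = 0.708). *Gnat2*, cone transducin, had 1378 to 1470 against 1514 to 1701 (-0.21, SE 0.059, adjusted p = 0.268), and *Pde6c*, the catalytic phosphodiesterase, 1331 to 1521 against 1530 to 1785 (-0.20, SE 0.066, adjusted p = 0.459). The subunit *Gnb3* overlapped between groups (-0.15), as did the blue opsin gene *Opn1sw* (-0.10) and the arrestin *Arr3* (0.02). Summed over the 8 cone markers, diabetic retinas held 895 to 991 CPM and controls 975 to 1066.

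Rod phototransduction genes had median log2 differences of -0.12, -0.02, -0.07, -0.13 and -0.13 at ZT1, ZT9, ZT13, ZT17 and ZT21. At ZT5 rod genes were nearer to 0 than cone genes. Of 22 rod phototransduction and outer segment genes, 3 were lower at an unadjusted p under 0.05 (3.56% of all genes) and 0 were called by edgeR or DESeq2 in that fit, with a median of -0.05 and 19 of 22 below 0 (49.9% of all genes). The clearest was *Pdc*, phosducin, which binds transducin in a light-dependent way, with 13432, 14539, 16112, 16880 and 16118 normalized counts against 16932, 18802 and 22384 (-0.29, SE 0.082, edgeR adjusted p = 0.26). Its groups did not overlap, by the narrow margin of 16880 to 16932, and the gene overlaps *Gm37764* on its own strand. *Gngt1*, the gamma subunit of rod transducin, differed by -0.17. Among 14 photoreceptor transcription factors 3 were lower and 2 higher at an unadjusted p under 0.05 (3.56% and 2.58% of all genes), led by *Rorb* and *Samd7* (-0.36 and -0.20).

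*Rorb*, a nuclear receptor of the clock loop that photoreceptor differentiation also needs, had 7335, 8813, 8480, 6568 and 7745 normalized counts in diabetic retinas and 8733, 10231 and 10754 as lowest, median and highest control. The groups overlapped by 1 diabetic library, and the log2 difference was -0.36 (SE 0.092, edgeR adjusted p = 0.15). With counts corrected for GC content and length *Rorb* passed the threshold (-0.34, edgeR adjusted p = 0.00465). Over the other 5 time points *Rorb* differed by -0.05 (adjusted p = 0.654). Of all 15 core clock genes 0 were called in the edgeR fit of 12 groups or by the same fit in DESeq2, 3 were higher and 1 lower at an unadjusted p under 0.05 (2.58% and 3.56% of all genes), and the median was 0.03. *Npas2*, *Cry1* and *Cry2* were higher by 0.36, 0.22 and 0.18, with edgeR adjusted p of 0.741, 0.519 and 0.578. *Cry2* alone of the 15 did not overlap, with 2134 to 2456 against 1890 to 2099. *Clock*, *Per2*, *Per3*, *Nr1d1* and *Nr1d2* lay within 0.03 of 0, with SE from 0.076 to 0.14. Among 15 clock-controlled genes the smallest p was that of *Usp2* (0.25, SE 0.12), followed by *Csnk1e* (0.12, SE 0.074).

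**Figure D3:**
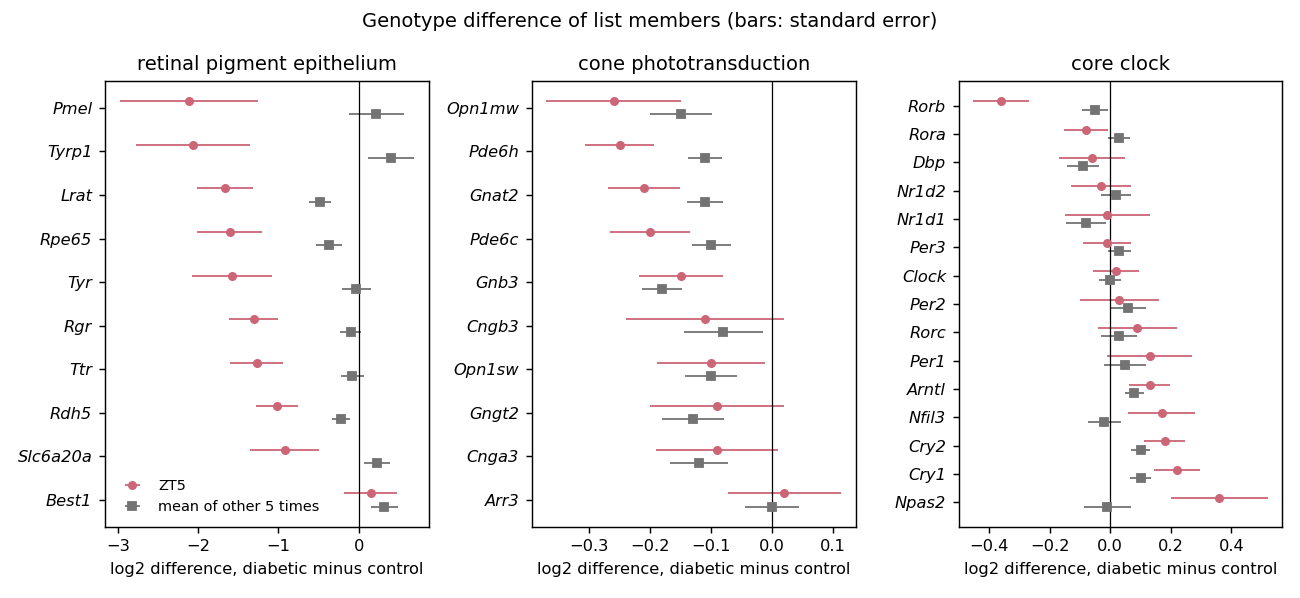
Log2 difference (diabetic minus control) with its standard error for each tested member of 3 lists, at ZT5 (circles) and as the mean of the other 5 time points (squares); the x scales differ between panels. Epithelial markers reach -2.12 at ZT5, where cone genes stay between -0.26 and 0.02, and *Rorb* (-0.36 at ZT5, -0.05 elsewhere) is the lowest clock gene.

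Lists of metabolism and stress stayed close to 0, and none of these lists had a member called in the fit of all 58 libraries by edgeR or DESeq2. Medians ran from -0.14 for reactive gliosis to 0.09 for the ATF4 stress response. In the latter 15 of 19 genes were above 0 (50.1% of all genes), with *Slc38a2* as the only one at an unadjusted p under 0.05 (2.58% of all genes were higher at that level) and the serine synthesis gene *Psat1* at 0.12. Of 17 reactive gliosis genes 2 were lower at an unadjusted p under 0.05 (3.56% of all genes). They were the growth factor *Fgf2* (-0.25, SE 0.098) and the complement gene *C4b* (-0.64, SE 0.28). Of 22 genes of the endoplasmic reticulum chaperones and the unfolded protein response, 1 was lower at an unadjusted p under 0.05 (3.56% of all genes), the chaperone *Hsp90b1*, with 3263 to 3831 normalized counts against 3913 to 4539 (-0.23, SE 0.11, edgeR adjusted p = 0.771), while *Xbp1* was at 0.17. Among 22 heat shock genes 1 was higher at an unadjusted p under 0.05 (2.58% of all genes), *Hspa1b* (0.31, SE 0.13). *Dnajb1* was next at 0.18. For the cold-inducible *Rbm3* and *Cirbp* the values were 0.12 and -0.11.

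Glucose handling differed little beside these. Of 22 glycolysis genes 2 were lower at an unadjusted p under 0.05 (3.56% of all genes), the epithelial *Slc16a8* and *Hk2*, hexokinase 2 of the photoreceptors, with 5546 to 7153 normalized counts against 6838 to 8566 (-0.23, SE 0.093, edgeR adjusted p = 0.704). In the hypoxia list *Ndrg1* was at 0.20 beside *Car12*. The insulin and glucose sensing genes had no member at an unadjusted p under 0.05, and the nearest, *Mlxip* and *Foxo1*, were at 0.16 and 0.10. Polyol and hexosamine genes had none either (*Hagh* 0.13, *Uap1* -0.08), nor did the NRF2 genes (*Hmox1* -0.35, *Gclc* 0.08). Of 18 genes of fatty acid oxidation and ketone metabolism, 1 was higher and 1 lower at an unadjusted p under 0.05. These were *Ppara* (0.19) and *Cpt2* (-0.22), where 2.58% of all genes were higher and 3.56% lower. Cholesterol synthesis genes were below 0 in 16 of 19 cases (49.9% of all genes) but by at most 0.11 (*Cyp51* -0.11).

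Respiratory chain and ribosomal protein genes also lay near 0. The 24 nuclear genes of the respiratory chain lay between -0.11 and 0.10 (*Ndufb5* -0.10, *Sdha* -0.06), and 21 ribosomal protein genes had a median of -0.04 (*Rpl10* -0.14). The mitochondrial transcripts *mt-Nd5* and *mt-Cytb* both differed by -0.13, with SE of 0.18 and 0.19. Immediate early genes had no member at an unadjusted p under 0.05 (*Nr4a2* 0.19, *Egr3* -0.54), nor had the interferon list (*Rsad2* 0.46, *Ifit1* 0.39). Of 24 vascular signalling genes 3 were lower at an unadjusted p under 0.05 (3.56% of all genes), among them *Col8a2* and the receptor *Flt4* (-0.45, SE 0.14). The glucocorticoid targets *Klf9* and *Hif3a* were at 0.17 and 0.36, and the histones *Hist2h2be* and *Hist1h1c* at -0.23 and -0.25. Markers of Muller glia, astrocytes, endothelium, microglia, horizontal cells and ganglion cells had no member at an unadjusted p under 0.05. At that level 2 of 10 bipolar markers were lower (3.56% of all genes) and 1 of 10 amacrine markers was higher (2.58%).

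**Figure D4:**
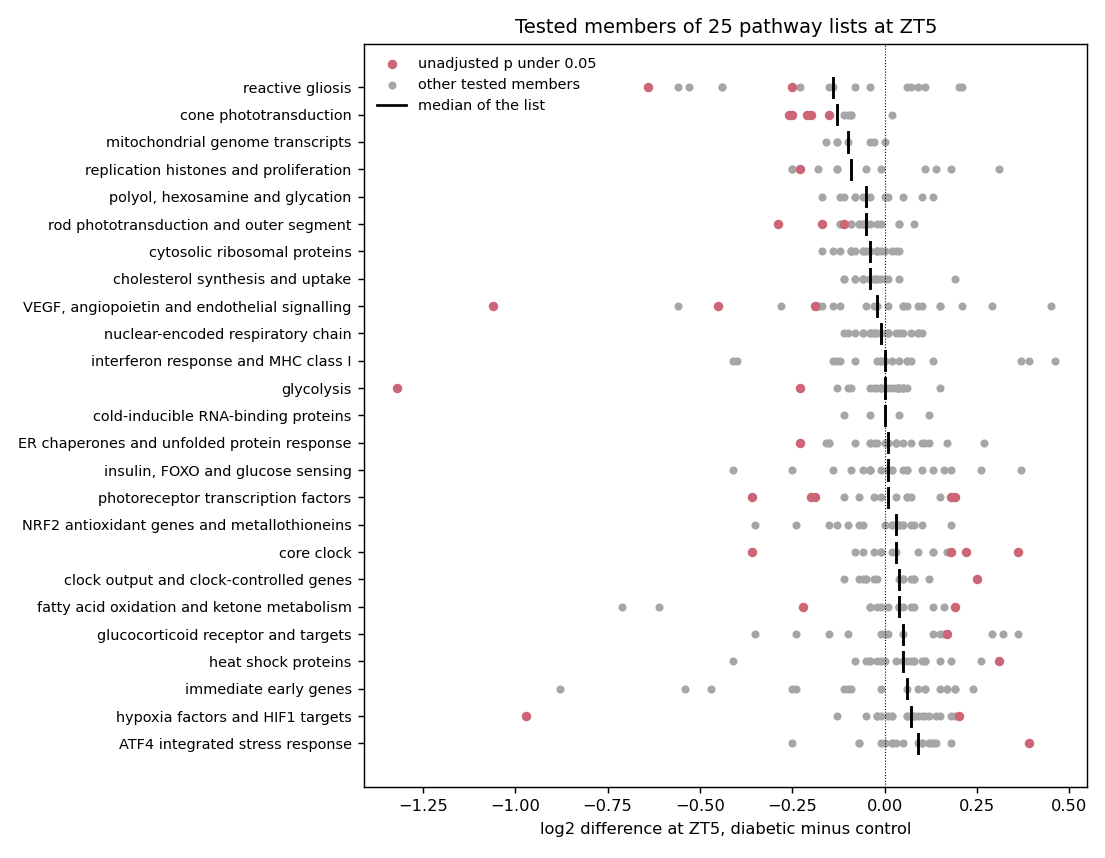
Log2 differences at ZT5 (diabetic minus control) of the tested members of 25 pathway lists, 1 point per gene, with the list median as a bar and members at an unadjusted p under 0.05 in red. Medians stay between -0.14 and 0.09, and the points furthest left are *Slc16a8* (-1.32), *Col8a2* (-1.06) and *Car12* (-0.97).

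A test of the ZT5 difference against the mean difference of the other 5 time points asked what was particular to this hour. With edgeR 0 genes passed after adjustment (0%), 677 had an unadjusted p under 0.05 (3.54%), and DESeq2 called 1. *Kif4*, a chromokinesin, gave the smallest p, and overlaps *Pdzd11* on the other strand. It had 104, 94.2, 131, 90 and 94.2 normalized counts in diabetic retinas and 141, 167 and 187 as lowest, median and highest control, without overlap. The ZT5 difference of -0.71 stood -1.02 from that of the other times (unadjusted p = 3.91e-06, edgeR adjusted p = 0.0747). In controls its mean was 41.7 at ZT1, 166 at ZT5, 202 at ZT9 and 103 at ZT13, and in diabetic retinas 62.2, 103, 161 and 148 at the same hours. *Kif4* was thus lower in diabetic retinas at ZT5 and ZT9 (-0.71 and -0.32) and higher at ZT1, ZT13, ZT17 and ZT21 (0.60, 0.50, 0.34 and 0.43). *Tm6sf2*, of lipoprotein lipid loading, and *Wdr33*, of RNA 3' end processing, had log2 differences of -0.66 and -0.14 at ZT5 and of -0.02 and 0.03 elsewhere. *Abcc2* differed by -1.54 at 2.72 to 21.4 normalized counts. *Emp1* rested on control replicate 5, which had 111 normalized counts where the other controls had at most 8.16: its difference was -2.69 with that library and -0.56 without it.

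Genes named above also differed at other hours. *Fndc1* differed by -0.25, -0.37, -0.51, -0.48 and -0.43 at ZT1, ZT9, ZT13, ZT17 and ZT21, so ZT5 gave its widest gap (unadjusted p of the difference 0.0258, edgeR adjusted p = 1). *Rnf123* lay between -0.29 and -0.40 at all 6 times and *Fstl3* between 0.57 and 0.89. *Slc38a2* differed by 0.39 both at ZT5 and as the mean of the other times. *Fam160a1* was at -0.26, -0.06, -0.06, -0.25 and -0.16 outside ZT5.

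**Figure D5:**
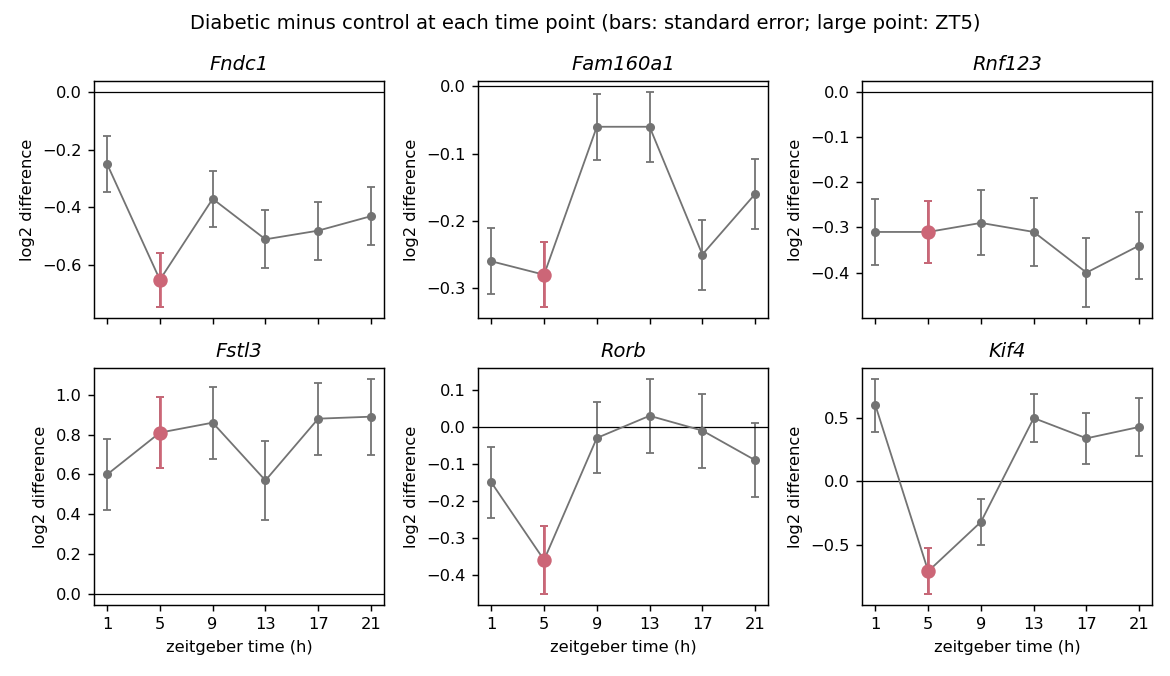
Log2 difference (diabetic minus control) with its standard error for 6 genes at 6 zeitgeber times, ZT5 as the large red point; each panel has its own y scale. *Rnf123* and *Fstl3* keep a like difference through the day, *Rorb* departs from 0 at ZT5 (-0.36), and *Kif4* changes sign between times.

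The other 5 time points share no library with ZT5, and there 589 genes were called by edgeR for genotype (3.08%). Of the 312 higher in diabetic retinas 266 had the same sign at ZT5 (85.3%, against 50.1% of all genes), 65 of them with an unadjusted p under 0.05 (20.8%, against 2.58%), and 2 had the opposite sign at that level. Of the 277 lower, 241 had the same sign (87%, against 49.9%), 77 at an unadjusted p under 0.05 (27.8%, against 3.56%), and 0 the opposite sign at that level. The median difference of these genes was 0.23 and -0.19 elsewhere, and 0.12 and -0.12 at ZT5. Across all 19120 genes, which are not independent replicates, the log2 differences at ZT5 correlated with those at ZT1, ZT9, ZT13, ZT17 and ZT21 with Pearson's r of 0.106, 0.204, 0.016, 0.177 and 0.096.

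Genes with a day and night difference were set beside ZT5 from control libraries of the other hours, as ZT13, ZT17 and ZT21 minus ZT1 and ZT9. Of all genes 375 were higher at night (1.96%) and 395 lower (2.07%). Of the 681 genes lower in diabetic retinas at ZT5, 55 were night-higher (8.08%) and 25 night-lower (3.67%). Of the 494 higher ones, 15 were night-higher (3.04%) and 22 night-lower (4.45%). *Lrat*, *Rgr*, *Ttr* and *Slc16a8* were among the night-higher genes, with 0.82, 0.75, 0.84 and 0.87 on the log2 scale, as were *Rorb* (0.41), *Pdc* (0.38), *Hk2* (0.56), *Gm15348* (0.49) and *Fam160a1* (0.18). For *Lrat* and *Rgr* the control means were 40.7 and 399 at ZT1 and 75.6 and 474 at ZT5, which this contrast left out, but 199 and 994 at ZT9, against 140 to 190 and 949 to 1321 at night.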

How the data were processed

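RNA of single mouse retinas was sequenced on a NovaSeq from libraries made with the KAPA RNA HyperPrep Kit with RiboErase. The authors aligned reads with STAR (2.7.4a) to GRCm38.p5 with Gencode M15 and counted them per gene with HTSeq (0.11.1). The deposited table holds raw counts, not normalized or filtered, for 52459 symbols. The strand setting is not given in the sources used here, so reads of overlapping genes may be shared: 47 of the 103 genes looked up (those the naming rule gave and tested members of the pigment epithelium, cone and clock lists) overlap another model, and the report gives this for the genes it rests on most. Of the symbols, 47982 matched 1 gene of Gencode M21 (same build), the source of positions. Columns were assigned by title.

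Genes with a median above 4 normalized counts (DESeq2 1.42.0) over 58 libraries were tested with edgeR 4.0.16 (TMM, quasi-likelihood) in R 4.3.3, in 1 fit of 12 groups, with Benjamini-Hochberg adjustment over 19120 genes at 0.05. All 58 libraries share its estimate of spread, and limma 3.58.1 was an alternative. Correlations and summaries used Python 3.11.15. Scripts were tested on simulated data. Nothing in the labels says that any 2 libraries came from 1 mouse or from different ones, so p-values measure the spread between retinas. Named genes were the 10 with the smallest p in each direction, 2 per pathway list, the 5 with the smallest p against the other times, and *Ins2*. The results of a few genes are left out of the text. Members of the epithelial, cone and clock lists, *Gm37240* and *Wdr82* were added after their values were seen. The lists were chosen with earlier results of these data known. Library totals ranged from 7773117 to 18287074 reads at ZT5, so genes with few reads, such as *Gm43364*, carry a wide counting error.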

Additional observations from a re-analysis of the deposited data

Results flagged for a closer look

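Among 78 groups of 5 or 6 libraries (25 of the named genes and the marker sums), 6 had 1 library whose gap to the nearest other exceeded Dixon's 95% limit, and chance alone gives about 1 in 20. *Trpc6* had 365 normalized counts in diabetic replicate 1, against 303 in the next diabetic library. *Emp1* had 111 in control replicate 5, against 8.16 in the next control. The same control library had the highest sums of lens markers (11.5 CPM, counts scaled to a common library total, next 3.47), of cornea, iris and ciliary body markers (45.3, next 17.4) and of blood markers (8.66, next 0.646). The summed Muller glia markers were lowest in control replicate 2, at 3853 CPM against 4096 in the next control. The part of control replicate 5 in the count of genes that fell was measured by leaving it out, which gave 5 genes in place of 4: *Fndc1* and *Fam160a1* were called again, *Gm15348* (adjusted p = 0.0589) and *Gm43364* (0.0595) were not, and *Lrat*, *Rgr* and *Lman1* were added.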

How the results depend on the processing

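The counts of genes called at ZT5 depended on the fit. With only the 11 ZT5 libraries 5 genes were higher and 23 lower. The DESeq2 Wald test gave 2 and 22, with 1 gene for ZT5 against the other times, and 10 and 57 on the 11 libraries. With the correction for GC content and length 1 was higher and 11 lower. The 4 lower genes became 2 with counts thinned to the smallest library. With no filter 1 gene differed between ZT5 and the other times. Leaving out each library in turn gave 0 to 1 higher, 2 to 5 lower and 0 to 1 for ZT5 against the other times; *Fndc1* and *Fam160a1* were called in all 11 of these fits. The lower count was 2 without control replicate 1, 2 or 6 or diabetic replicate 1, 3, 4 or 5. DESeq2 size factors, limma-voom, filterByExpr and a median above 10 kept 0 higher and 3 or 4 lower.

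Of 5 pairs with a like replicate number 1 correlated above 0.1, and 2 of 5 correlated best with their own number. So few pairs cannot decide whether replicate numbers paired the libraries. With a replicate block 1 was higher and 9 lower, with the block on the ZT5 libraries alone 6 and 50, and with the block and the GC and length correction 2 and 28.

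A covariate for the summed pigment epithelium markers was added after seeing the data. With it 1 gene was lower, *Fndc1*, while the log2 differences of the other 3 stayed close to those without it or larger (*Fam160a1* -0.27, adjusted p = 0.0711; *Gm43364* -1.69, 0.0536; *Gm15348* -0.69, 0.231). Also with it 0 of the markers were lower at an unadjusted p under 0.05, which follows from its construction since the markers make up the covariate. Log2 differences changed sign for *Rgr* (0.061), *Ttr* (0.18), *Slc6a20a* (0.47), *Car12* (0.17), *Col8a2* (0.26) and *Rpl10* (0.03), and with thinned counts for *Best1* (-0.19). Elsewhere the count of markers lower was 7 to 10. Over 81 named genes and 25 alternatives, 1889 of 2015 values kept their direction and side of the threshold, 93 passed it anew and 26 lost it. The cause was not tested where no construction is named.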
